A study of Glycine max with 9 samples.

Results

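In soybean roots given 10 mM sucrose, 4 WRKY transcription factor genes that were barely or weakly expressed in control roots were among the more abundant transcripts after 40 min. The 4 genes are LOC100815760, named WRKY41 in the study, LOC102666898, named WRKY33, LOC100807966, named WRKY40, and WRKY5, named SUSIBA2. They were chosen by the study among the transcription factors most strongly raised at 40 min against 0 min, so their levels at 40 min against 0 min are given here as a description with no test. They are 4 of the 62645 genes in the deposited table and hold 8 of its 119600 transcripts. A transcript without a gene identifier is counted there as a gene under its own name.

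Plants of the cultivar Williams 82, grown for 4 weeks in nutrient solution, formed 3 groups of 3 plants each, with 1 RNA-seq library per plant. Control plants (t0) were harvested at 0 min with no sucrose, and the other plants were harvested 20 min (t20) or 40 min (t40) after sucrose was added to the nutrient solution to 10 mM. The tissue was root sections of about 2 cm that included the tip, and all plants had the same complete nutrient solution. The labels name no group with a mock addition, so sucrose and the time since handling cannot be told apart. The table's columns show the time and a library number but no replicate number. Libraries 1 to 3 are t0, libraries 4 to 6 are t20 and libraries 7 to 9 are t40.

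WRKY proteins are plant transcription factors that carry a conserved DNA-binding domain followed by a zinc finger, and they bind short elements called W boxes in the promoters of their targets. Many are switched on within minutes to hours of wounding, microbial signals or other stresses, and several act on each other's promoters. In Arabidopsis, WRKY33 is a substrate of MAP kinases and is needed for resistance to necrotrophic fungi, WRKY40 acts together with WRKY18 and WRKY60 in immunity and in the response to abscisic acid, and WRKY41 takes part in seed dormancy and in defence. SUSIBA2 is known from barley, where it is induced by sugar and binds sugar-responsive elements in the promoter of a starch synthesis gene. The roles of the 4 soybean genes themselves were not measured here.

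Values are FPKM, fragments scaled by transcript length and by the mapped fragments of the library, summed over the transcripts of a gene. They are scaled by length, so levels can be set side by side between genes. The columns used do not give the number of fragments behind a value, so no counting interval is given. Root tips are bulk tissue, in which more cells of a type and more RNA per cell cannot be told apart. Library 5, from t20, stood apart from libraries 4 and 6: of the 49 WRKY genes tested by their symbol, 46 had their lowest t20 value in it. The tests of the members, the shares reached by t20, the ratios between members and the counts of most lists at t20 are therefore given with and without library 5.

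WRKY41 (chromosome 5, 39684295 to 39686398, reverse strand, Glycine_max_v4.0) was under 1 FPKM in every library without sucrose. Its FPKM was 0.486, 0.228 and 0.442 at t0, 46.3, 8.75 and 41.4 at t20, and 46.8, 74.1 and 95.3 at t40. All 3 libraries of each time lay above all 3 of the time before, although library 4 of t20 came close to library 7 of t40. The means were 0.385 ± 0.138 FPKM at t0, 32.1 ± 20.4 at t20 and 72.1 ± 24.3 at t40 (SD, n = 3 each). In single t40 libraries the level was 122 to 248 times the t0 mean.

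WRKY33 (chromosome 3, 5495236 to 5498604, forward strand) started at a similarly low level. It had 0.707, 0.603 and 0.587 FPKM at t0, 18.6, 2.92 and 19.5 FPKM at t20, and 37.8, 61.3 and 66.2 FPKM at t40. The 3 times did not overlap, and library 5 was again far below libraries 4 and 6. The means were 0.632 ± 0.065 FPKM at t0, 13.7 ± 9.33 at t20 and 55.1 ± 15.2 at t40 (SD, n = 3 each), and single t40 libraries had 59.8 to 105 times the t0 mean.

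SUSIBA2, the gene with the symbol WRKY5 (chromosome 1, 45122089 to 45125683, reverse strand), had 0.243, 0.110 and 0.580 FPKM at t0, 14.3, 1.71 and 12.5 FPKM at t20, and 34.6, 47.2 and 52.0 FPKM at t40. Again no library of one time overlapped with those of another. The means were 0.311 ± 0.242 FPKM at t0, 9.48 ± 6.79 at t20 and 44.6 ± 8.96 at t40 (SD, n = 3 each). Its t40 libraries stood at 111 to 167 times the t0 mean, with less spread than those of WRKY41.

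WRKY40 (chromosome 7, 1774739 to 1777029, reverse strand) differed from the other members in its higher level without sucrose, over 1 FPKM in every t0 library. Its FPKM was 4.12, 2.32 and 2.3 at t0, 19.3, 5.27 and 21.9 at t20, and 27.1, 54.7 and 73.7 at t40. The lowest t20 library exceeded the highest t0 library by little, and t20 and t40 did not overlap. The means were 2.91 ± 1.04 FPKM at t0, 15.5 ± 8.96 at t20 and 51.8 ± 23.4 at t40 (SD, n = 3 each), so its t40 libraries reached 9.32 to 25.3 times the t0 mean, a smaller multiple than in the other members from a higher start.

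**Figure D1:**
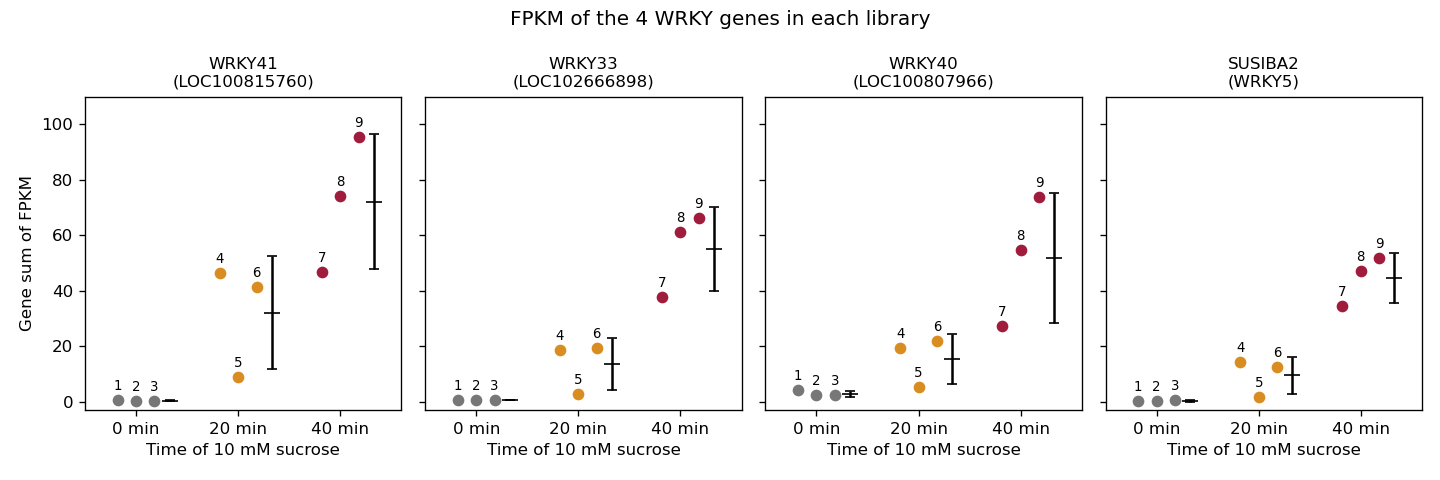
Gene sum of FPKM (vertical axis) of WRKY41, WRKY33, WRKY40 and SUSIBA2 at 0, 20 and 40 min of 10 mM sucrose, with 1 point per library, its library number above it, and the mean with its SD (n = 3) as a bar to the right. In each gene the t40 libraries lie highest, library 5 is the lowest of t20, library 7 the lowest and library 9 the highest of t40.

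At t0 the order of the mean levels was WRKY40, WRKY33, WRKY41 and SUSIBA2, from 2.91 to 0.311 FPKM. The libraries of WRKY40 lay above those of the others, those of WRKY33 lay above those of WRKY41, and those of WRKY41 overlapped with those of SUSIBA2. At t40 the order was WRKY41, WRKY33, WRKY40 and SUSIBA2, from 72.1 to 44.6 FPKM, and each gene's libraries overlapped with those of its neighbour in this order. Placed among the 32763 genes tested, WRKY41 moved up to percentiles 92.3 to 96.4 at t40, against percentiles 2.15 to 4.98 at t0. For SUSIBA2 the percentiles were 89.0 to 92.8 at t40 and 1.28 to 6.77 at t0, for WRKY33 90.1 to 94.5 at t40 and 5.00 to 6.87 at t0, and for WRKY40 85.7 to 95.2 at t40 and 22.8 to 36.7 at t0. The same libraries were high or low in all 4 genes: library 7 was the lowest and library 9 the highest of t40 in each of them.

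On the scale of log2(FPKM + 1), the differences of t40 against t0 were 5.67 (SE 0.52) for WRKY41, 5.12 (SE 0.55) for SUSIBA2, 5.06 (SE 0.54) for WRKY33 and 3.68 (SE 0.50) for WRKY40. Among the 32763 genes these were the differences of rank 5, 25, 27 and 170 from the top. This contrast chose the members, so nothing is read from these sizes or from the absence of overlap, and this scale understates the change of genes that start near 0. Beside them, 10.5% of all tested genes were higher at t40 by the call rule used here (an adjusted p under 0.05 and a log2 difference of at least 1) and 3.49% were lower, and in 26.6% all 3 t40 libraries lay above all 3 t0 libraries. With quantile normalization the median of all genes at t40 was -0.11 (log2), against 0.06 without it, and 2690 genes were higher and 1621 lower at t40, against 3441 and 1144 without it. WRKY41, WRKY33 and SUSIBA2 passed the filter on low values (3 or more libraries with FPKM of 1 or more) only through their t20 and t40 libraries, and WRKY40 passed in all 9.

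How far the 4 genes had come by 20 min was asked of the t20 libraries, which did not enter the choice of the members, although the t0 libraries did. At t20, WRKY41 and WRKY33 passed the adjusted threshold and WRKY40 and SUSIBA2 did not. WRKY41, WRKY33 and SUSIBA2 were under 1 FPKM in every t0 library and passed the filter on low values only through later libraries. From such a level a fall could hardly be seen, so nothing is read from the direction of their t20 differences. WRKY41 had a log2 difference of t20 against t0 of 4.29 (SE 0.52, limma with Benjamini-Hochberg adjustment over all tested genes, adjusted p = 0.0258), which was the largest log2 difference at t20 among all 32763 tested genes. WRKY33 had 2.83 (SE 0.54, limma adjusted p = 0.0458, rank 75). SUSIBA2 had 2.67 (SE 0.55, limma adjusted p = 0.055, rank 105) and WRKY40 1.90 (SE 0.50, limma adjusted p = 0.1, rank 415). By this rule 0.766% of all tested genes were higher at t20 and 0.156% lower. In all 4 members the 3 t20 libraries lay above the 3 t0 libraries, as they did in 10.6% of all tested genes.

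These t20 calls rested on few libraries. Without library 5, all 4 genes passed, with log2 differences of 5.02 for WRKY41, 3.62 for WRKY33, 2.50 for WRKY40 and 3.47 for SUSIBA2 and limma adjusted p values of 0.000245, 0.000245, 0.00517 and 0.000245 in the same order. Their t20 means were then 43.8, 19.1, 20.6 and 13.4 FPKM (n = 2). The call of WRKY41 was lost without library 1, 2, 3, 4, 6 or 9, and that of WRKY33 without any library other than library 5. The number of genes higher at t20 over the whole table was 251 with all libraries, 0 without library 2, 4 or 6, and 1954 without library 5.

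Library 5 was not at the t0 level for these genes. The t20 libraries can be placed on the log2 scale between the t0 mean (0%) and the t40 mean (100%) of a gene. WRKY41 stood at 89.9% in library 4, 49.7% in library 5 and 87.2% in library 6. WRKY33 stood at 70.8%, 24.9% and 72.2% in these libraries, WRKY40 at 65.5%, 19.4% and 70.3%, and SUSIBA2 at 69.5%, 20.7% and 66.0%. The median over all genes higher at t40 was 77.6%, 20.9% and 54.4%, so that in library 5 WRKY41 lay well ahead of this median and the other members near it. What set library 5 apart was not tested.

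From 20 to 40 min, the levels of all 4 genes went on upward in the means, but none passed the adjusted test. The log2 difference of t40 against t20 was 2.45 for SUSIBA2 (SE 0.55, limma adjusted p = 0.0611), 2.23 for WRKY33 (SE 0.54, limma adjusted p = 0.0782), 1.78 for WRKY40 (SE 0.50, limma adjusted p = 0.118) and 1.38 for WRKY41 (SE 0.52, limma adjusted p = 0.213). Before adjustment, limma gave all 4 a p under 0.05. Among the 30018 tested genes with a t0 mean of at least 1 FPKM, 2772 were higher at such a p. The t40 libraries of each member lay above its t20 libraries, which was so in 15.9% of all tested genes, and by the call rule 1.3% of all tested genes were higher and 0.058% lower. SUSIBA2 and WRKY33 passed without library 4 (limma adjusted p = 0.0291 and 0.0405) and without library 5 (0.0303 and 0.0448). Without library 5, WRKY41 had 0.65 (limma adjusted p = 0.367) and WRKY40 1.18 (limma adjusted p = 0.223), the value of WRKY41 being less than the 1.38 with all libraries by over 1.5 times. The comparison shares its t40 libraries with the contrast that chose the members.

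WRKY41 thus had the largest difference of the 4 at t20 and the smallest between t20 and t40. On the log2 scale, 75.6% of its difference at t40 was present in the t20 mean, against 56.0% for WRKY33, 52.1% for SUSIBA2 and 51.7% for WRKY40. In FPKM these shares were 44.3% for WRKY41, 23.9% for WRKY33, 20.7% for SUSIBA2 and 25.7% for WRKY40. Without library 5 the shares on the log2 scale were 88.5% for WRKY41, 71.5% for WRKY33, 67.8% for SUSIBA2 and 67.9% for WRKY40.

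Ratios between members within a library do not depend on how that library was scaled. The log2 ratio of WRKY41 to WRKY33 was 0.31, 0.27 and 0.53 in the t40 libraries, against 1.32, 1.59 and 1.08 in the t20 libraries. The groups did not overlap, and library 5 had the highest of the ratios. The difference of t40 minus t20 was -0.96, with an exact permutation p of 0.1 (two-sided, the smallest that 3 against 3 libraries allow), and it was -0.83 without library 5.

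The ratio of WRKY41 to SUSIBA2 behaved alike, at 0.43, 0.65 and 0.88 (log2) at t40 against 1.70, 2.36 and 1.73 at t20, a difference of -1.28, or -1.06 without library 5. The ratio of WRKY33 to SUSIBA2 averaged 0.29 at t40 and 0.60 at t20, again without overlap, though the nearest libraries were almost equal (0.376 at t40 and 0.381 at t20). In the other 3 pairs the t40 and t20 libraries overlapped: WRKY41 to WRKY40 averaged 0.53 at t40 and 0.97 at t20, WRKY33 to WRKY40 0.16 at t40 and -0.36 at t20, and WRKY40 to SUSIBA2 0.12 at t40 and 0.96 at t20. For WRKY41 to WRKY40 the overlap came from library 5 alone (0.731). Libraries 4 and 6 of t20, at 1.262 and 0.915, lay above the t40 libraries, at 0.786, 0.439 and 0.371. With 6 pairs compared, the Benjamini-Hochberg adjusted exact permutation p was 0.2 for each. Without library 5 the difference of t40 minus t20 was -0.23 for WRKY33 to SUSIBA2 and -0.56 for WRKY41 to WRKY40. It was then 0.275 for WRKY33 to WRKY40 and -0.505 for WRKY40 to SUSIBA2. At t0 WRKY41 stood far below WRKY40, at a mean log2 ratio of -2.94, and at t20 and t40 above it.

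**Figure D2:**
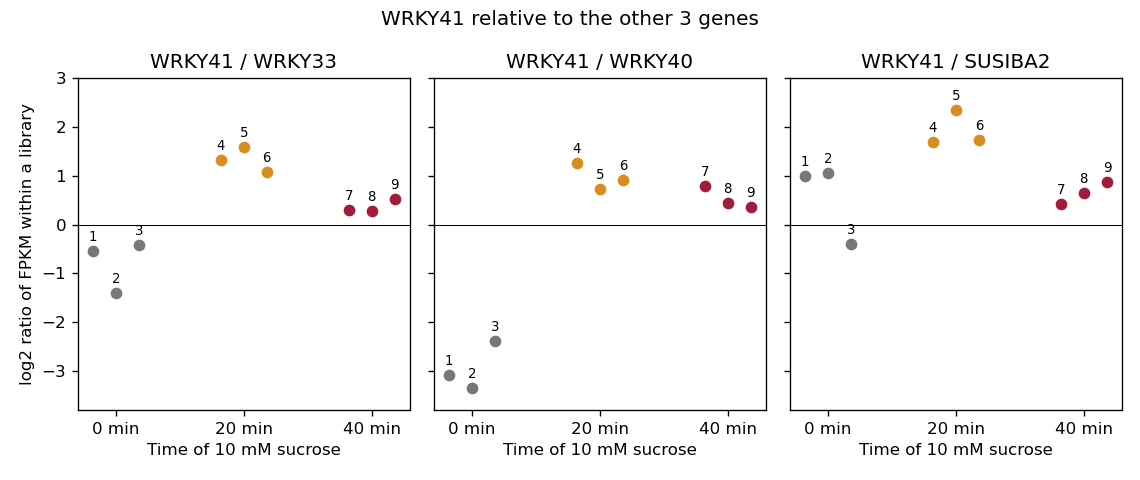
Log2 ratio of the FPKM of WRKY41 to that of WRKY33, WRKY40 and SUSIBA2 within each library (vertical axis) at 0, 20 and 40 min of 10 mM sucrose, with 1 point per library and its number. Relative to WRKY33 and SUSIBA2 the t40 libraries lie below all t20 libraries, and relative to WRKY40 they overlap.

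The members' numbers do not identify them by symbol, since the annotation gives the symbols WRKY41, WRKY33 and WRKY40 to other soybean genes. The gene with the symbol WRKY41 (chromosome 3, 43498484 to 43500273) had 14.3, 8.43 and 5.99 FPKM at t0, 9.90, 6.14 and 12.4 at t20, and 10.7, 14.8 and 15.5 at t40. Its libraries overlapped between all times, with a log2 difference of 0.02 at t20 (limma adjusted p = 0.986) and 0.53 at t40 against t0 (limma adjusted p = 0.24). It was thus more abundant than LOC100815760 before sucrose and less abundant at 40 min.

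The gene with the symbol WRKY33 (chromosome 17, 4331201 to 4332861) was abundant in every group, at 39.4 ± 7.99 FPKM at t0, 35.3 ± 10.4 at t20 and 55.6 ± 13.1 at t40 (SD, n = 3 each). Its log2 differences against t0 were -0.18 at t20 and 0.48 at t40 (limma adjusted p = 0.78 and 0.23). At t40 LOC102666898, with a mean of 55.1 FPKM, had reached the level of this gene. The gene with the symbol WRKY40 (chromosome 8, 11025439 to 11027836) stayed low, at 0.504 ± 0.501 FPKM at t0, 0.668 ± 0.207 at t20 and 1.45 ± 0.331 at t40, with a log2 difference of 0.74 at t40 against t0 (limma adjusted p = 0.0462) that was under the fold threshold.

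**Figure D3:**
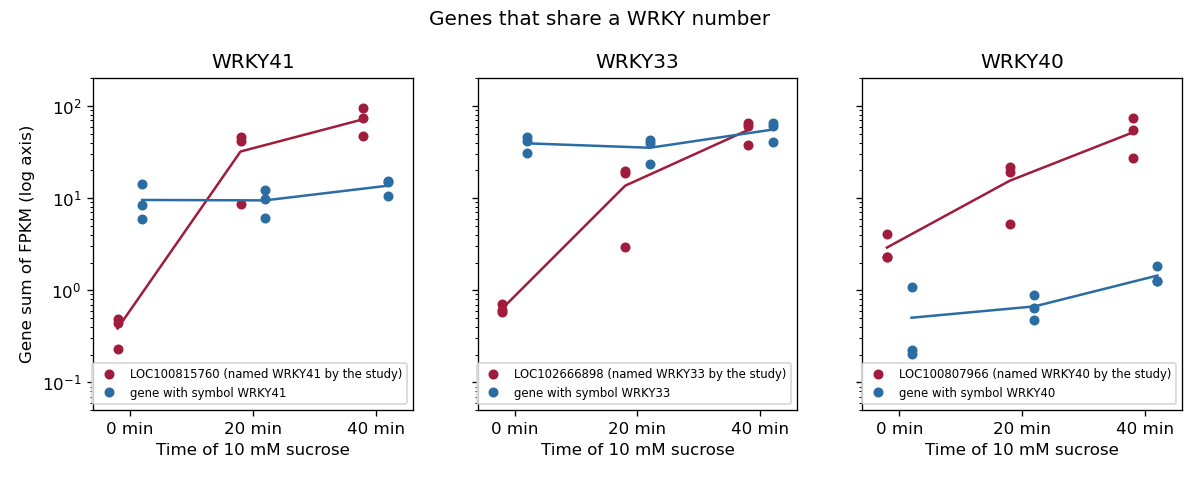
Gene sum of FPKM (vertical log axis) at 0, 20 and 40 min for the genes that the study named WRKY41, WRKY33 and WRKY40 (dark red) and the genes that carry these symbols in the annotation (blue), with 1 point per library and a line through the means. The named genes climb from 0 to 40 min, while the libraries of the genes with the symbols WRKY41 and WRKY33 overlap between times and the gene with the symbol WRKY40 stays under 2 FPKM.

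Each member other than WRKY41 was also present as a transcript that StringTie assembled from the reads and that the annotation lacks. The WRKY41 gene has 1 transcript of 3 exons and 1883 bases. The annotated WRKY33 transcript has 5 exons and 1882 bases, and the assembled form has 4 exons and 1999 bases, which is 1 exon fewer and 117 bases more. The annotated WRKY40 transcript has 5 exons and 1546 bases, against 4 exons and 1529 bases in the assembled form. For SUSIBA2 there are 2 annotated forms of 5 exons whose lengths differ by 2 bases (2129 and 2127). Its assembled form has 4 exons and 2746 bases, 617 bases more than the longer annotated form. The positions of the exons were not used here, so what sets the assembled forms apart is known only from these numbers.

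The assembled forms were the minor ones once the genes were expressed, and in the means they went up along with the annotated ones. Single libraries overlapped between times. The assembled WRKY40 form had 0.947 FPKM in library 1 of t0 and 0.374 in library 5 of t20. That of SUSIBA2 had 3.97 FPKM in library 4 of t20 and 3.16 in library 7 of t40. For WRKY33 the assembled form made 12.9%, 17.0% and 14.5% of the gene's FPKM at t40, against 10.5%, 17.9% and 6.32% at t20. For WRKY40 it made 8.20%, 17.2% and 17.2% at t40, against 11.5%, 7.09% and 3.85% at t20. The shares of the 2 times overlapped in both genes. For SUSIBA2 the share was wider, at 9.12%, 30.0% and 20.7% at t40 and 27.9%, 2.37% and 21.8% at t20.

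In FPKM, the assembled form of SUSIBA2 had 3.16, 14.2 and 10.8 at t40, that of WRKY33 4.87, 10.4 and 9.58, and that of WRKY40 2.23, 9.42 and 12.7. At t0 the shares of WRKY33 and SUSIBA2 were 0% or 100% in single libraries, at totals under 1 FPKM, and nothing is read from them. The split between the 2 annotated SUSIBA2 forms moved widely between libraries of the same time: the shorter form had 11.9, 2.6 and 10.6 FPKM at t40, while the longer had 19.6, 30.5 and 30.6. The 2 forms are nearly equal in length, and the reads they share are not known from the values used. This split is therefore uncertain, and the gene sum is used elsewhere.

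**Figure D4:**
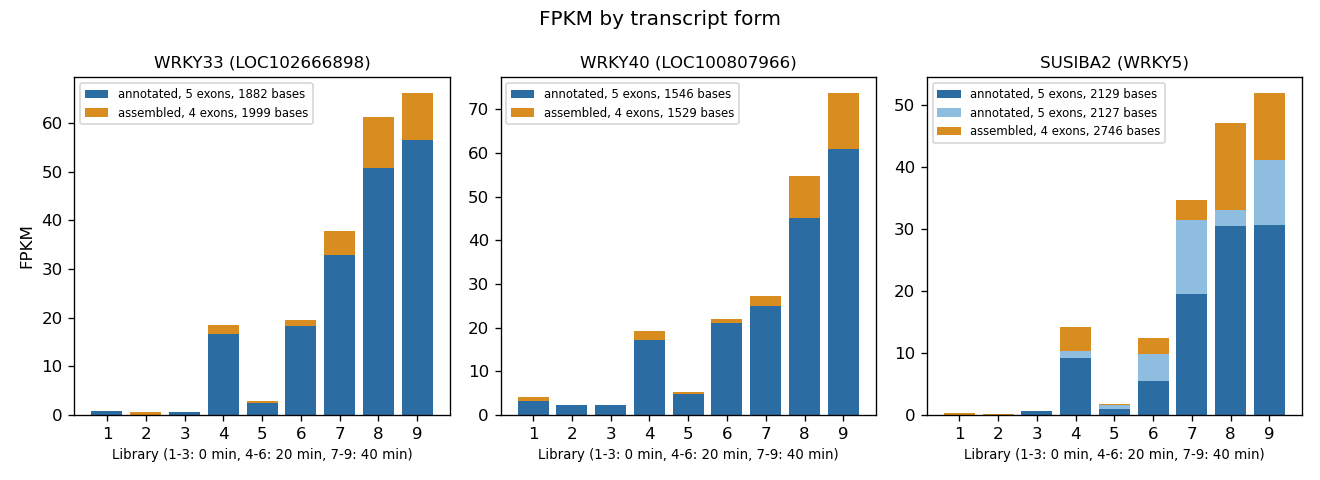
FPKM of each transcript form (vertical axis, stacked to the gene sum) of WRKY33, WRKY40 and SUSIBA2 in libraries 1 to 9, with annotated forms in blue and the assembled 4-exon form in orange. The assembled form is present in all t20 and t40 libraries as the smaller part of the bar, between 2.37% and 30.0% of the gene's FPKM.

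The rest of the WRKY family was read from gene symbols. The table holds 60 genes with a symbol of WRKY and a number other than WRKY5, and 49 passed the filter on low values. Of these, 10 had a t0 mean under 1 FPKM and needed later libraries to pass, which nearly fixed their direction. Of the other 39, 20 rose and 0 fell at t40 against t0 (51.3%), and at an unadjusted p under 0.05 the limma fit had 25 higher and 0 lower. Over all 30018 tested genes with a t0 mean of at least 1 FPKM, 7.91% rose and 3.81% fell. The median log2 difference of the 39 was 1.00 at t40 and 0.45 at t20, against 0.01 and -0.0031 over these 30018 genes. At t20, limma called 0 of the 39, beside 0.55% of these 30018 genes higher and 0.17% lower. At an unadjusted p under 0.05, 16 of the 39 were higher and 0 lower at t20. Of the 30018 genes, 2628 were higher and 1913 lower at that p at t20, and 5662 and 5339 at t40. With the 10 low genes included, 29 of 49 rose at t40, beside 10.5% of all tested genes, and 1 (WRKY46) at t20, beside 0.766%. The count of 29 moved by less than 1.5 times under every alternative run. The count at t20 was 17 without library 5, beside 1954 of the 32526 genes then tested. It was 0 without any other single library, where 0 to 73 genes of the whole table were higher.

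Of the 49 genes by symbol, 2 (WRKY27 and WRKY46) had a larger log2 difference at t40 than LOC100807966, the member with the smallest, and none had a larger one than LOC100815760. The members were chosen by this contrast, so nothing is read from their place in this order. WRKY27 (chromosome 15) had 1.18 ± 0.17 FPKM at t0, 18.6 ± 13.1 at t20 and 86.2 ± 37.8 at t40 (SD, n = 3 each). Its log2 difference at t40 was 5.23 (SE 0.61, limma adjusted p = 0.00101). WRKY46 (chromosome 8) had 34.2 ± 11.96 FPKM at t40, against 0.115 ± 0.062 at t0, a log2 difference of 4.93 (SE 0.52, limma adjusted p = 0.000893), and it also rose at t20, with 10.7 ± 7.29 FPKM and a log2 difference of 3.09 (limma adjusted p = 0.0386; 3.83 and 0.000245 without library 5). Its t0 mean was under 1 FPKM.

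The next 3 rises were smaller. WRKY56 had 64.5 ± 26.4 FPKM at t40, against 4.98 ± 3.72 at t0, and a log2 difference of 3.56 (limma adjusted p = 0.00497). WRKY6 had 46.9 ± 3.61 FPKM at t40, against 3.58 ± 2.03 at t0, and 3.48 (limma adjusted p = 0.00101). WRKY39 had 90.6 ± 17.6 FPKM at t40, against 7.93 ± 3.44 at t0, and 3.40 (limma adjusted p = 0.00614). WRKY27 and WRKY39 were the 2 of the 49 genes whose t40 mean lay above those of all 4 members.

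Of the 9 tested WRKY genes with at least 20 FPKM at t0, 1 passed the test at t40 (WRKY42), and of the 30 with 1 to under 20 FPKM, 19 did. Among the 9, the t40 libraries lay above all t0 libraries in 4 and below them in 1, so missing the threshold is not a sign of no change. The most abundant WRKY gene at t0 was WRKY52, with 38.7 ± 4.75 FPKM at t40, against 59.4 ± 13.8 at t0, a log2 difference of -0.58 (limma adjusted p = 0.168), and it was the only one of the 49 whose t40 libraries all lay below its t0 libraries. WRKY31, WRKY13 and WRKY48 had means of 49.5, 49.5 and 59.6 FPKM at t40, against 46.2, 44.6 and 44.0 FPKM at t0, with log2 differences of 0.13, 0.16 and 0.48 that did not pass (limma adjusted p = 0.812, 0.741 and 0.512).

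Between 20 and 40 min, 2 of the 49 rose (WRKY6 and WRKY60) and 0 fell, beside 1.3% and 0.058% of all tested genes. At an unadjusted p under 0.05, limma had 23 of the 49 higher and 0 lower. At that p, 2772 of the 30018 genes with at least 1 FPKM at t0 were higher and 2059 lower. Summed over the 60 genes and the 4 members, WRKY transcripts made 587.5, 394.8 and 585.7 FPKM at t0, 1134, 399 and 1008 FPKM at t20, and 1309, 1592 and 1810 FPKM at t40. The members' share of this sum was 0.945%, 0.826% and 0.667% at t0, 8.68%, 4.67% and 9.45% at t20, and 11.2%, 14.9% and 15.9% at t40. Since the members were chosen for their rise at t40 against t0, nothing is read from their larger share at t40. In library 5 the sum was at the level of t0, while the members' share was several times that of every t0 library.

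**Figure D5:**
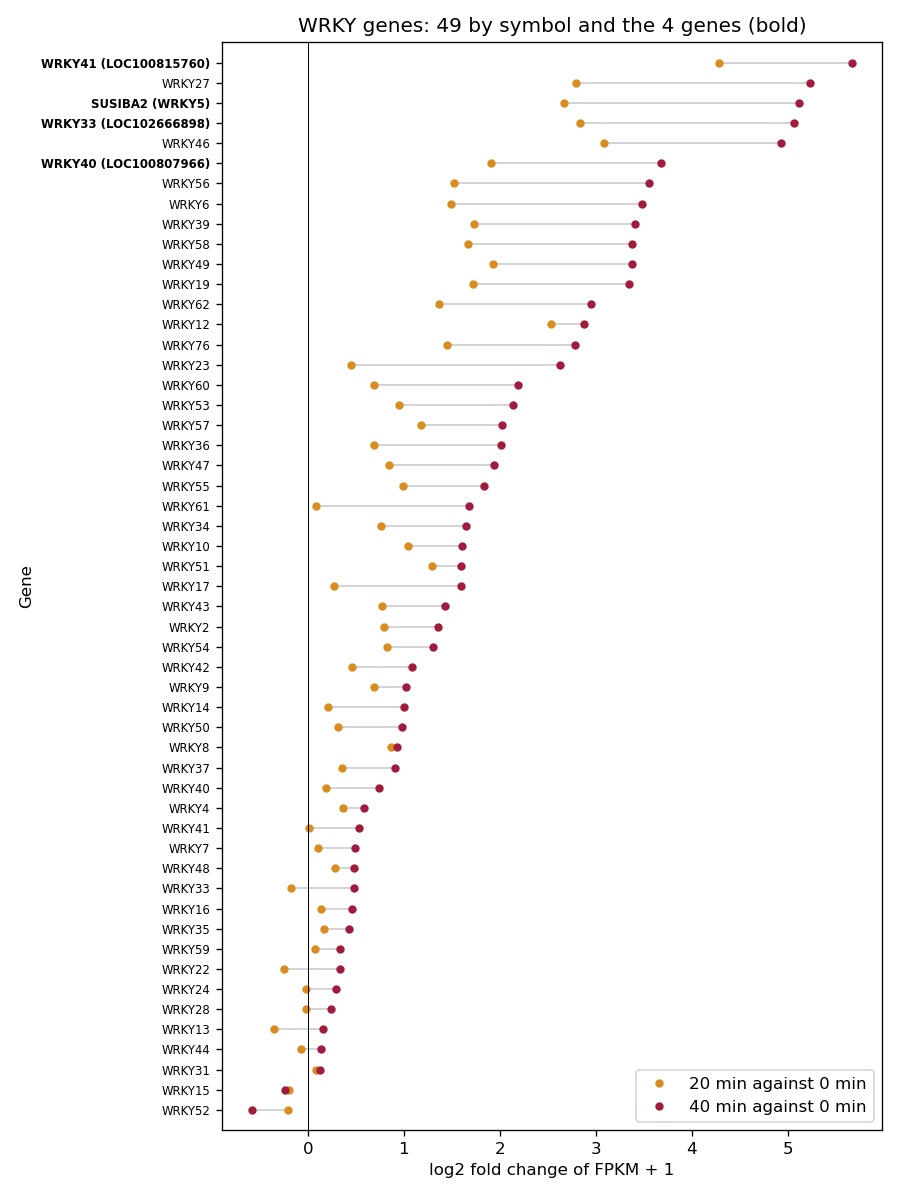
Log2 difference of FPKM + 1 (horizontal axis) of t20 against t0 (orange) and t40 against t0 (dark red) for the 4 members (bold) and the 49 tested WRKY genes by symbol, in the order of the t40 difference. WRKY41 (LOC100815760) is at the top at both times, at 4.29 and 5.67, and the genes with the symbols WRKY40, WRKY41 and WRKY33 are in the lower part, at 0.74, 0.53 and 0.48 at t40. The members were chosen by the t40 difference, so nothing is read from their place in its order.

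Across the 9 libraries the members followed each other closely. Pearson's r of log2(FPKM + 1) was highest between WRKY33 and SUSIBA2, at 0.996, and lowest between WRKY41 and WRKY40, at 0.954. The libraries share the 3 times and the low library 5, and 1.38% to 2.45% of 19444 genes with a mean of at least 5 FPKM had an r over 0.95 with a given member, so these values are a description only. For WRKY41 the 3 closest genes were LOC100305767 (chromosome 8, r = 0.995), LOC100804277 (chromosome 17, r = 0.994) and LOC100806797 (chromosome 3, r = 0.994). LOC100305767 had 1.76 FPKM at t0, 33.4 at t20 and 64.2 at t40 in the mean, with 76.8% of its log2 difference at t40 present at t20.

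For WRKY33 the closest genes were LOC100777247 and LOC100776708, which lie next to each other on chromosome 11, and LOC100777107 on chromosome 6, each with r = 0.998. LOC100777107 was also among the 3 closest of SUSIBA2 (r = 0.997), beside LOC100795302 on chromosome 3 and the assembled gene MSTRG.5449 (r = 0.997 each). LOC100777107 had means of 0.021 FPKM at t0, 14.4 at t20 and 93.4 at t40. For WRKY40 they were LOC100820563 (r = 0.994), LOC100794321 (r = 0.992) and AOX3 (r = 0.991). AOX3, an alternative oxidase of the mitochondrial respiratory chain, had 28.5 ± 2.76 FPKM at t0, 71.5 ± 27.0 at t20 and 172.6 ± 35.2 at t40 (SD, n = 3 each). Like WRKY40 and unlike the other members, it was over 1 FPKM in every t0 library.

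The nearest tested gene on each side of a member was read to see whether the change was limited to the member. Beside WRKY41 both neighbours rose at t40: LOC102670105, at a distance of 3837 bases, with 6.90 ± 3.52 FPKM at t40 against 0.316 ± 0.063 at t0 (log2 difference 2.48, limma adjusted p = 0.00276), and LOC100305657, at 5224 bases, with 119.4 ± 39.3 FPKM at t40 against 33.1 ± 19.5 at t0 (1.92, limma adjusted p = 0.00847). Beside WRKY33 both rose by less, LOC100803617 at 7631 bases (1.33, limma adjusted p = 0.00546) and LOC100805579 at 19724 bases (1.06, limma adjusted p = 0.015). Beside WRKY40 neither passed: LOC100805836, only 1111 bases away, had 3.25 ± 0.554 FPKM at t40 and 4.24 ± 0.625 at t0 (log2 difference -0.31, limma adjusted p = 0.315), and LOC100808847 had a log2 difference of 0.26 (limma adjusted p = 0.314). Beside SUSIBA2, LOC100811015 had 0.50 (limma adjusted p = 0.195) and LOC100812083 had 0.96 (limma adjusted p = 0.0246), under the fold threshold. Thus 4 of 8 neighbours rose at t40, beside 10.5% of all tested genes. LOC102670105, counted among them, was under 1 FPKM in every t0 library and passed the filter on low values only through later libraries. This nearly fixed its direction. At t20 the limma fit called 0 of the 8, beside 0.766%, and 4 were higher at an unadjusted p under 0.05. At such a p, 2628 of the 30018 genes with at least 1 FPKM at t0 were higher. Without library 5, 2 of the 8 were called higher at t20, beside 1954 of the 32526 genes then tested.

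Genes of the pathways in which such WRKY factors act in other plants were read by symbol. Of 7 genes with a MAP kinase or MAP kinase kinase symbol, 5 rose and 0 fell at t40, beside 10.5% and 3.49% of all tested genes, with a median log2 difference of 1.28 against 0.06 over all tested genes, and 6 were higher and 0 lower at an unadjusted p under 0.05. MPK4B and MAPK16-4 had log2 differences of 2.09 and 1.51 (limma adjusted p = 0.00287 and 0.00495). At t20, 0 of the 7 passed in limma, beside 0.766% of all tested genes, with 2 higher at an unadjusted p under 0.05. At such a p, 2628 of the 30018 genes with at least 1 FPKM at t0 were higher at t20. At t40, 5662 of these genes were higher and 5339 lower. Without library 5, 1 of the 7 was called higher at t20, beside 1954 of the 32526 genes then tested.

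Of 15 tested defence regulators by symbol, 5 rose and 0 fell at t40, beside 10.5% and 3.49% of all tested genes, with a median of 0.97 against 0.06, while 6 were higher and 0 lower at an unadjusted p under 0.05. Among the 15, PR1-1 to PR1-6 had t0 means under 1 FPKM and needed later libraries to pass the filter on low values. This nearly fixed their direction, so nothing is read from the median, and none of them was called at t40. EDS1-2, whose Arabidopsis counterpart is a hub of salicylic acid-dependent immunity, had 25.8 ± 1.24 FPKM at t40, against 5.76 ± 1.63 at t0 (log2 difference 2.02, limma adjusted p = 0.00495). RIN4B and RIN4a, of a family that immune receptors guard in Arabidopsis, had log2 differences of 1.56 and 1.5 (limma adjusted p = 0.0141 and 0.0232). At t20, 0 of the 15 passed in limma, beside 0.766%, with 1 higher at an unadjusted p under 0.05. At such a p, 2628 of the 30018 genes with at least 1 FPKM at t0 were higher at t20. At t40, 5662 of these genes were higher and 5339 lower. Without library 5, 3 of the 15 were called higher at t20, beside 1954 of the 32526 genes then tested.

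The only tested starch gene by symbol was GBSSIa, granule-bound starch synthase, with 7.31 ± 1.22 FPKM at t40 and 17.4 ± 7.60 at t0 (log2 difference -1.07, limma adjusted p = 0.0719). Of 18 tested sugar transporters, 3 rose and 2 fell at t40, beside 10.5% and 3.49% of all tested genes, with a median of 0.34 against 0.06. At t20 limma called 0, beside 0.766% higher and 0.156% lower, with 4 higher and 3 lower at an unadjusted p under 0.05. At such a p, 2628 of the 30018 genes with at least 1 FPKM at t0 were higher and 1913 lower. Without library 5, 2 of the 17 transporters then tested were called higher at t20, beside 1954 of 32526 genes. SWEET26 fell to 12.8 ± 5.68 FPKM at t40, against 79.7 ± 41.9 at t0 (log2 difference -2.49, limma adjusted p = 0.0153), SWEET45 to 14.6 ± 7.62 FPKM, against 72.8 ± 41.8 (-2.19, limma adjusted p = 0.0326). STP had 28.8 ± 8.41 FPKM at t40, against 6.29 ± 1.08 at t0 (2.00, limma adjusted p = 0.0112).

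Markers of other tissues were read beside these results. The summed FPKM of 10 leaf markers ranged over 145 to 356 in t0 libraries, 170 to 708 in t20 libraries and 111 to 145 in t40 libraries, with none at 0 in all libraries. Of the 7 tested leaf markers, 1 rose at t20 against t0, beside 0.766% of all tested genes, with a median log2 difference of 1.5 against 0.02. At an unadjusted p under 0.05, 6 of the 7 were higher, beside 2628 of the 30018 genes with at least 1 FPKM at t0. Without library 5, 3 of the 5 leaf markers then tested were called higher at t20, beside 1954 of 32526 genes. At t40 against t20, 1 leaf marker fell, beside 0.058% of all tested genes, with a median of -1.06. At an unadjusted p under 0.05, 4 were lower, beside 2059 of the 30018 genes. The sum of 8 nodule markers ranged over 98.3 to 275 in t0, 131 to 440 in t20 and 250 to 312 in t40 libraries, nearly all of it NOD33, with 3 (ENOD93, LBC1 and LBC3) at 0 in all libraries. The sum of 13 root markers ranged over 249 to 363 in t0, 254 to 458 in t20 and 536 to 691 in t40 libraries, with PT10D at 0 in all libraries. This sum was highest at t40, as were the members, but its t20 libraries overlapped with those of t0, unlike theirs. Of the 10 tested root markers, 5 rose and 0 fell at t40 against t0, beside 10.5% and 3.49% of all tested genes. Their median log2 difference was 1.25 against 0.06. At t20, 0 root markers were called, and 3 without library 5. Between 20 and 40 min 1 rose, beside 1.3%. Of the 3 tested nodule markers, 0 were called in any comparison. In library 5 the root markers summed to 254, the lowest of t20, and the leaf markers to 170. The part of these shifts in the WRKY results was not tested. How reads that map to more than 1 of the many duplicated soybean genes were assigned is not given in the sources used here, so levels of members with near-identical copies are uncertain to that extent.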

How the data were processed

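RNA from 9 soybean root tip samples was sequenced as stranded libraries. Per the labels and methods, the authors trimmed reads (Trimmomatic 0.32), aligned them with HISAT2 to Glycine_max_v4.0, assembled transcripts with StringTie and took FPKM from Ballgown. The deposited table gives FPKM per transcript and library, and, as other values, each transcript's length and exon number. Its 9 coverage columns could not be matched to samples and were not used. The 490 transcripts without a gene identifier were kept, each as a gene under its own transcript name. The study gives read numbers by time, on the whole lowest at 40 min, but the columns used hold no depth.

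FPKM were summed per gene, 32763 genes reached an FPKM of 1 in 3 or more libraries and were kept, and log2(FPKM + 1) was fitted with limma 3.58.1 in R 4.3.3 (lmFit, eBayes with trend, all 9 libraries), with Benjamini-Hochberg adjustment. A gene was called at an adjusted p under 0.05 together with a log2 difference of 1 or more in size. Tables were handled with Python 3.11.15, pandas 2.3.3 and scipy 1.17.1, and the fit was tested on simulated data. P-values measure the spread between these samples. Members and lists were chosen with earlier results of these data known.

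The genes named are the 4 members, the 3 genes with the highest Pearson r to each, the 5 largest WRKY rises and falls (no WRKY gene fell), the 5 WRKY genes highest at t0, and up to 3 called genes per list, of which 1 is not reported here. Genes sharing a member's name, neighbours, ratios between members, MAP kinases by symbol, WRKY42 and WRKY60 were added afterwards. Protein and promoter sequences were not used here, so planned lists by protein motif and paralogues by sequence were not made.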

Additional observations from a re-analysis of the deposited data

Results flagged for a closer look

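WRKY6 and WRKY60 were singled out because their 40 min samples differed from their 20 min samples in the direct test of these times, which no member passed. WRKY6 had 46.9 ± 3.61 FPKM at t40, against 12.2 ± 6.07 at t20 (SD, n = 3 each), a log2 difference of 1.99 (SE 0.40, limma adjusted p = 0.0452). WRKY60, which is named for this result and was chosen after its values were seen, had 4.36 ± 1.40 FPKM at t40, against 0.887 ± 0.392 at t20, a log2 difference of 1.49 (SE 0.23, limma adjusted p = 0.0243). WRKY60 was under 1 FPKM in every t0 library and in library 5, so it passed the filter on low values only through later libraries. Without library 5 these differences were 1.52 (limma adjusted p = 0.0675) for WRKY6 and 1.31 (limma adjusted p = 0.0488) for WRKY60. Neither kept its call without library 6, 7, 8 or 9, with a pseudocount of 0.1 or with only the 2 groups in the fit. Over the whole table the genes higher at t40 than at t20 numbered 425 with all libraries and 0 without library 8 or library 9.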

How the results depend on the processing

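Alternatives were run for the members' differences and the WRKY counts, and none of these changed direction, although quantile normalization turned the median of all genes negative. No paired analysis was possible because the columns carry no replicate numbers. At t20 against t0, WRKY41 (LOC100815760) lost its call with no filter on low values (4.29, adjusted p = 0.0906), with only the 2 groups in the fit (4.29, 0.0784) and with single transcripts (4.29, 0.0612). WRKY33 (LOC102666898) lost it with no filter (2.83, 0.138), quantile normalization (2.66, 0.0665), median-ratio scaling (2.81, 0.061), only the 2 groups (2.83, 0.111) and single transcripts (2.91, 0.136). SUSIBA2 (WRKY5) gained a call with a pseudocount of 0.1 (4.24, 0.0255) or 0.5 (3.25, 0.0404). Leaving out each library in turn gave log2 differences at t20 of 3.88 to 5.02 for WRKY41, 2.42 to 3.62 for WRKY33, 1.56 to 2.50 for WRKY40 and 2.22 to 3.47 for SUSIBA2. At t40 against t20 it gave 0.65 to 1.79 for WRKY41, 1.45 to 2.64 for WRKY33, 1.18 to 2.17 for WRKY40 and 1.65 to 2.90 for SUSIBA2. The t40 against t0 values of members were 7.20, 6.20 and 6.91 for WRKY41, WRKY33 and SUSIBA2 with a pseudocount of 0.1.

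The count of WRKY genes higher at t20 (1) became 3 and 2 with pseudocounts of 0.1 and 0.5, 0 with no filter, with either scaling and with only the 2 groups, 0 to 17 when a library was left out, 2 with synonyms added and 8 at an unadjusted p under 0.05 with a log2 difference of at least 1.5. The count at t40 against t20 (2) became 0 with a pseudocount of 0.1, 1 with 0.5, 1 with no filter, 1 with a mean FPKM of at least 1, 0 with only the 2 groups, 0 to 10 when a library was left out (10 without library 4) and 10 at the unadjusted threshold. Synonyms and the unadjusted threshold were chosen after seeing the data. The causes were not tested. Paralogues of the members were not run. With 3 libraries per time and no depth in the columns used, levels under 1 FPKM are the least certain.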
